A study of Mus musculus with 6 samples.

Results

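The mouse heavy chain locus holds the IGHD3 and IGHD5 families of D gene segments, which are seldom used. Their clonotypes were counted in naïve follicular (FO) B cells of 2 mice. Each clonotype stands for 1 CDR3 sequence, the loop that spans the V-D-J joint and contacts antigen. It was counted here when its best D hit, with the allele number removed, was an IGHD3 or IGHD5 gene. The rule took 567 of 6787 clonotypes with a D hit from the iB-μMT mouse and 689 of 5948 from the B6 mouse, 1256 of 12735 in all. They carried 8 genes, IGHD3-1, IGHD3-2, IGHD5-1, IGHD5-2, IGHD5-3, IGHD5-5, IGHD5-7 and IGHD5-8, of the 16 D genes found as a best hit.

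The iB-μMT mouse was a μMT mouse (B6.129S2-Ighmtm1Cgn/J, aged 8 to 10 weeks at transplantation), which cannot make mature B cells of its own, and it was analysed 4 weeks after sublethal irradiation and transplantation. It received hematopoietic progenitors derived from iR9X2 embryonic stem cells, a C57BL/6 line with a GFP cassette at Hipp11 and a doxycycline-inducible Runx1-Hoxa9-Lhx2 cassette at Rosa26, both selected as drug-resistant clones. Doxycycline was given to the recipients. The control was 1 C57BL/6 (B6) mouse, whose age is not given in the sources used here. The splenic FO B cells were sorted by surface markers, among them high IgD and CD23, and the gate as listed names no GFP, so the donor origin of the iB-μMT cells rests on the host. The 2 heavy chain libraries held 909806 and 1383617 reads over 7794 and 6781 clonotypes, and no D gene was called for 12.9% and 12.3% of them, respectively. A constant region was read in 560 and 680 of the IGHD3 and IGHD5 clonotypes. It was IGHM, the constant region of unswitched cells, in 559 and 680 of these, and 1 clonotype of the iB-μMT mouse was switched. Each group was 1 library of 1 mouse, so every test below compares 2 libraries and not the conditions, and no value has a replicate check.

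In B cell development a D segment is first joined to a J segment and then to a V segment. Nucleotides are trimmed from the ends, palindromic (P) nucleotides copied from the ends can remain, and terminal deoxynucleotidyl transferase (TdT) inserts untemplated nucleotides at both joints. A D segment can be read in 3 frames and supplies the centre of CDR3. In RefSeq (GRCm38.p6) the D segments lie on the minus strand of chromosome 12. IGHD3-2 at chr12:113448214-113448229 is the second nearest D segment to the J genes, next to IGHD4-1 (chr12:113430528-113430538). IGHD3-1 (chr12:113525313-113525329) and IGHD5-1 (chr12:113526800-113526809) are the 2 segments farthest from the J genes. The other IGHD5 segments lie between them. Both IGHD3 genes are annotated as D segments, and all the IGHD5 genes are annotated as D segment pseudogenes.

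The germline sequences were read from the deposited alignments, in which every clonotype with a D hit shows its match to the reference and the bases that differ. The IGHD3 segments are printed because the reading frames and the short hits described below turn on them, and the IGHD5 segments because they are so short. Each is written 5′ to 3′ on the coding strand. For the first 2 and for the next 2, capitals mark runs of at least 4 bases that the pair shares.
IGHD3-1: ggcACAGCTCgGGCTAC
IGHD3-2: agACAGCTCaGGCTAC
IGHD5-1: gagTACCTAC
IGHD5-5: gacTACCTAC
IGHD5-7: aggcagctagcctctgcagtgccacaacc
The IGHD3 genes share 13 bases in 2 runs. IGHD5-1 and IGHD5-5 are only 10 bp long and share 7 of them in 1 run. IGHD5-2 and IGHD5-3 were not covered to their ends, and IGHD5-8 was not covered at all, so none of them is printed.

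Most calls of IGHD3-2 rested on a long stretch of the segment, and most calls of the other members did not. The reference used by the aligner carries the palindrome of the whole segment on either side of it, so that a hit can lie in the palindrome alone. Median germline coverage, the reference positions of the segment itself in the alignment, was 11 nucleotides for IGHD3-2 in both mice. It was 5 nucleotides for IGHD3-1 in both mice, and 2 and 0 nucleotides for IGHD5-7 (iB-μMT first, here and in each pair of values below). At least 8 germline nucleotides stood behind 181 of 247 IGHD3-2 clonotypes (73.3%, 67.4 to 78.4 by the 95% Wilson method) from the iB-μMT mouse and 214 of 286 (74.8%, 69.5 to 79.5) from the B6 mouse. For IGHD3-1 the counts were 26 of 150 and 24 of 164, and only 9 of them in each mouse matched without a mismatch or gap. In the IGHD5 family they were 12 of 170 and 26 of 239. No germline nucleotide at all was aligned in 37 of 86 and 83 of 136 IGHD5-7 clonotypes, against 26 of 1509 and 57 of 2030 for IGHD1-1, the D gene with the most clonotypes.

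**Figure D1:**
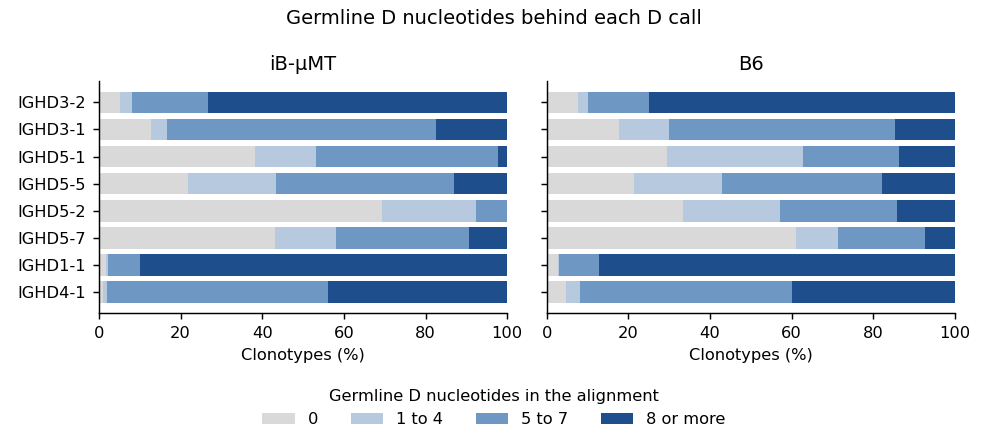
Share of clonotypes (%, horizontal axis) of 6 IGHD3 and IGHD5 genes and of IGHD1-1 and IGHD4-1, split by the number of germline D nucleotides in the alignment (shades), in the iB-μMT mouse (left) and the B6 mouse (right). The darkest shade, 8 or more nucleotides, fills 73.3% and 74.8% of IGHD3-2 but at most 17.9% of any other IGHD3 or IGHD5 gene drawn.

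Examples of clonotypes show the 2 kinds of call, with the aligned germline bases in capitals.
IGHD3-2, B6 mouse, 618 reads: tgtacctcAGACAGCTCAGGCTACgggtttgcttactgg
IGHD3-2, iB-μMT mouse, 242 reads: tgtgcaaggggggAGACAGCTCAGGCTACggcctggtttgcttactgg
IGHD3-1, iB-μMT mouse, 199 reads: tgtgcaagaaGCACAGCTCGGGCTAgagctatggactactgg
IGHD3-1, iB-μMT mouse, 475 reads: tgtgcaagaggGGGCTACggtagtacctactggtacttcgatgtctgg
IGHD5-1, iB-μMT mouse, 501 reads: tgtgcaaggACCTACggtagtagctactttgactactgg
IGHD5-7, B6 mouse, 670 reads: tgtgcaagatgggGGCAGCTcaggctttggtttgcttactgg
The first pair holds all 16 bases of IGHD3-2, and the third holds 15 bases of IGHD3-1. The other 3 are the clonotypes with the most reads of their gene and library. The fourth was called IGHD3-1 from 7 germline bases, and its longest exact match to any D segment was ctacggtagta, 11 bases of IGHD1-1. The fifth was called IGHD5-1 from 6 germline bases and held 10 bases of IGHD1-1. The sixth was called IGHD5-7 and held cagctcagg, 9 bases of IGHD3-2.

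Each member clonotype was compared with the 12 D segments that could be read in full, between the germline ends of V and J. IGHD5-2, IGHD5-3 and IGHD5-8 could not be compared. By the longest exact match, 306 of 567 and 348 of 689 clonotypes kept their gene, and 119 and 200 were left unsettled. The match went to IGHD3-2 in 8 and 11 IGHD5-7 clonotypes, the case of the last clonotype printed above. The shares of longer matches below count only IGHD1, IGHD2 and IGHD4 segments, so they leave that case out. An IGHD1, IGHD2 or IGHD4 segment had the longer exact match in 22 of 247 (8.91%) and 24 of 286 (8.39%) IGHD3-2 clonotypes. The share was 39.3% and 37.8% for IGHD3-1, 44.2% and 42.6% for IGHD5-7, 48.9% and 45.1% for IGHD5-1, and 78.3% and 57.1% for IGHD5-5. Among clonotypes called to an IGHD1, IGHD2 or IGHD4 gene, another segment of these families matched longer in 4.93% in either mouse. In both mice a J alignment that took at least 4 palindromic nucleotides stood beside the IGHD3-1 calls more often than beside the IGHD3-2 calls, 30.0% and 21.3% against 6.48% and 7.34%. The share was about as high beside the IGHD1-1 calls (27.4% and 19.6%), most of which rested on at least 8 germline nucleotides. Beside the IGHD2-5 calls it was 22.8% and 15.1%, and beside the IGHD4-1 calls 1.10% and 2.58%. Over all D genes outside the IGHD3 and IGHD5 families it was 11.8% and 10.7%. Whether the share is linked to short hits was not tested. Ties between D genes were also unevenly spread. All 86 and 136 IGHD5-7 clonotypes scored equally for at least 1 other D gene, in every case for IGHD6-1. All 13 and 21 IGHD5-2 clonotypes tied with IGHD5-3 and IGHD5-6, while 37 of 247 and 48 of 286 IGHD3-2 clonotypes were tied, mostly with IGHD5-8. Outside the IGHD3 and IGHD5 families 15.7% and 17.8% of clonotypes were tied, among them all 470 and 425 of IGHD2-5. The counts of every member below are therefore counts of calls. Only for IGHD3-2 do most of them rest on a long stretch of the segment, and 13 of 247 and 22 of 286 IGHD3-2 clonotypes had no germline nucleotide aligned.

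IGHD3-2, the J-proximal member, and IGHD5-7 were called less often in the iB-μMT mouse than in the B6 mouse, and no other tested member passed. Of clonotypes with a D hit, 247 of 6787 carried IGHD3-2 in the iB-μMT mouse (3.64%, 3.22 to 4.11 by the Wilson method) and 286 of 5948 did in the B6 mouse (4.81%, 4.29 to 5.38). The 2 intervals did not overlap, and the difference was -1.17 percentage points (-1.88 to -0.47, adjusted p = 0.00277, two-sided Fisher's exact test with Benjamini-Hochberg adjustment over the 14 D genes tested). IGHD5-7 made up 1.27% (1.03 to 1.56) and 2.29% (1.94 to 2.70), a difference of -1.02 points (-1.50 to -0.56, adjusted p = 3.53e-05 by the same exact test). Of the 14 D genes 21.4% were called lower in the iB-μMT mouse and 21.4% higher. Of the 6 members tested 2 were called lower and 0 higher, and the other gene called lower was IGHD1-1.

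The remaining members had small counts. IGHD3-1 was found in 150 (2.21%, 1.89 to 2.59) and 164 clonotypes (2.76%, 2.37 to 3.205), with a difference of -0.55 points (-1.10 to -0.01) that did not pass after adjustment (adjusted p = 0.103, Fisher's exact test). IGHD5-1 was found in 47 and 51 clonotypes, IGHD5-5 in 23 and 28, and IGHD5-2 in 13 and 21, with adjusted p of 0.395, 0.367 and 0.151 by the same exact test. IGHD5-3 was found in 1 clonotype of the iB-μMT mouse, with 180 reads, and in 0 of 5948 of the B6 mouse, which allows a share of up to 0.0504%. IGHD5-8 was found in 3 clonotypes of the B6 mouse and in 0 of 6787 of the iB-μMT mouse, which allows up to 0.0442%. Neither was tested. IGHD5-4 and IGHD5-6, which RefSeq also lists, were the first hit of no clonotype.

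**Figure D2:**
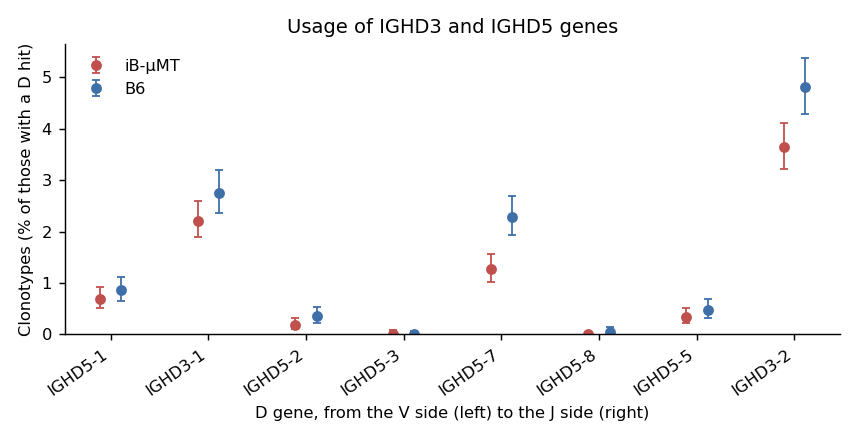
Clonotypes of each IGHD3 and IGHD5 gene as a percentage of the clonotypes with a D hit (vertical axis), in order along the locus from the V side to the J side, for the iB-μMT mouse (red) and the B6 mouse (blue), 1 library each. Bars are 95% Wilson intervals, and they are separate only for IGHD3-2 (3.64% and 4.81%) and IGHD5-7 (1.27% and 2.29%).

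When only clonotypes with at least 8 germline D nucleotides were counted, a setting chosen after seeing the data, the difference of IGHD3-2 was of like size and few calls of the other members were left. IGHD3-2 then made up 181 of 4631 and 214 of 4230 clonotypes (3.91% and 5.06%, adjusted p = 0.0178, Fisher's exact test). IGHD3-1 made up 0.561% and 0.567%. IGHD5-7 fell to 8 and 10 clonotypes, IGHD5-1 to 1 and 7, IGHD5-5 to 3 and 5, and IGHD5-2 to 0 and 3, all under the 20 needed for a test. The difference of IGHD5-7 thus rests on calls with fewer than 8 germline nucleotides. By the longest exact match, the other setting chosen after seeing the data, 30 and 49 clonotypes were assigned to IGHD5-7 (adjusted p = 0.00867, Fisher's exact test). Of these, 24 and 31 had been called IGHD5-7, and the rest came from calls of other D genes. IGHD5-5 with 7 and 17 clonotypes also passed (adjusted p = 0.0377, exact test), and 4 and 10 of them had been called IGHD5-5.

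The neighbours of IGHD3-2 on the locus set its difference in context. IGHD4-1, the only D segment nearer to the J genes, made up 18.7% (iB-μMT) and 9.77% (B6) of clonotypes with a D hit (adjusted p = 7.81e-47, Fisher's exact test). The next segment of the IGHD2 family beyond it, IGHD2-8, made up 8.16% and 5.35%. IGHD3-2 thus stood lower in the iB-μMT mouse while the nearest IGHD4 and IGHD2 segments on either side stood higher. The families ranked IGHD2, IGHD1, IGHD4, IGHD3 and IGHD5 in the iB-μMT mouse, and the IGHD3 family (5.85% against 7.57%) and the IGHD5 family (2.50% against 4.02%) had the smaller share there. IGHD1-1, the single member of its family found, made up 22.2% and 34.1%, and IGHD2-3 (16.1%) and IGHD2-4 (14.7%) were the most frequent IGHD2 genes of iB-μMT and B6, respectively. IGHD6-2, another pseudogene with few germline nucleotides behind its calls, was found in 32 and 25 clonotypes. By reads in place of clonotypes IGHD3-2 made up 3.28% and 4.68%.

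Within either mouse IGHD3-2 was rarely joined to IGHJ1, the J gene nearest to the D segments, and more often to IGHJ3. In the iB-μMT mouse 12 of 247 IGHD3-2 clonotypes used IGHJ1 (4.86%, 2.80 to 8.30), against 900 of 6220 clonotypes of the D genes outside the IGHD3 and IGHD5 families (14.5%, 13.6 to 15.4; adjusted p = 1.003e-05, two-sided Fisher's exact test adjusted over 8 tests). In the B6 mouse 14 of 286 did (4.90%, 2.94 to 8.05), against 909 of 5259 (17.3%, 16.3 to 18.3; adjusted p = 6.90e-09, exact test). The share was 2.98-fold lower in the iB-μMT mouse and 3.53-fold lower in the B6 mouse. In the iB-μMT mouse a low share was not particular to IGHD3-2. There IGHD2-8 used IGHJ1 in 34 of 554 clonotypes (6.14%, 4.42 to 8.45) and IGHD5-7 in 6 of 86 (6.98%, 3.24 to 14.4). In the B6 mouse these genes had 14.2% and 12.5%. Between the mice the share of IGHJ1 for IGHD3-2 differed by -0.04 points (-3.80 to 3.92). That of IGHJ2 differed by -9.53 points (-17.3 to -1.55), IGHJ3 by 2.41 (-5.62 to 10.5) and IGHJ4 by 7.16 (-0.49 to 14.8).

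IGHJ3 was joined to 88 of 247 IGHD3-2 clonotypes in the iB-μMT mouse (35.6%, against 23.6% of the outside D genes, adjusted p = 9.78e-05, Fisher's exact test) and to 95 of 286 in the B6 mouse (33.2% against 23.7%, adjusted p = 0.000764). A raised share of IGHJ3 was also found for single IGHD2 genes. Among the IGHD1, IGHD2 and IGHD4 genes it ran from 19.5% (IGHD1-1) to 30.1% (IGHD2-4) in the iB-μMT mouse. In the B6 mouse it ran from 18.6% (IGHD2-8) to 32.5% (IGHD2-4). With at least 8 germline nucleotides IGHD2-5 had 38.1% in the iB-μMT mouse, beside 38.7% of IGHD3-2. In the B6 mouse IGHD2-4 then had 244 of 697, beside 76 of 214 of IGHD3-2. IGHJ2 and IGHJ4 did not pass the test in either mouse. IGHJ2 made up 27.5% of IGHD3-2 clonotypes against 32.8% in the iB-μMT mouse (adjusted p = 0.129, exact test) and 37.1% against 31.7% in the B6 mouse (adjusted p = 0.109, exact test), and IGHJ4 made up 32.0% against 29.1% and 24.8% against 27.3% (adjusted p = 0.404 and 0.413, exact test).

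**Figure D3:**
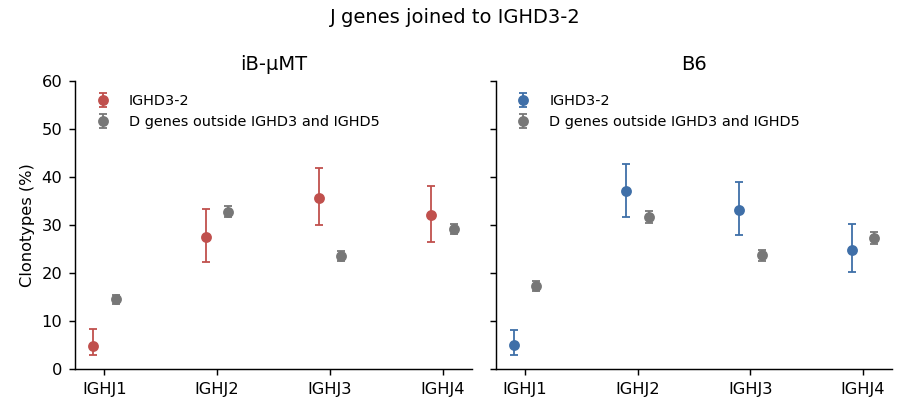
Share of clonotypes (%, vertical axis) joined to each of the 4 J genes for IGHD3-2 (coloured) and for the D genes outside the IGHD3 and IGHD5 families (grey), in the iB-μMT mouse (left) and the B6 mouse (right), with 95% Wilson intervals. The interval of IGHJ1 for IGHD3-2 lies below that of the other D genes in both panels (4.86% against 14.5% and 4.90% against 17.3%).

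The share of IGHJ1 was lower again among IGHD3-2 clonotypes with at least 8 germline nucleotides, but that setting is not independent of J. Bases that D and J share can fall to the J side, so IGHJ1 joints may lose D coverage. In the IGHD3-2 clonotype with the most reads of the iB-μMT mouse, joined to IGHJ1, 7 germline nucleotides were aligned. The next bases, gctac, also end the segment but were not counted. How far this lowers the share was not tested. With at least 8 germline nucleotides, 5 of 181 (2.76%) and 7 of 214 (3.27%) IGHD3-2 clonotypes used IGHJ1. With that setting the 8 other D genes with at least 20 clonotypes ranged from 6.44% (IGHD2-8) to 26.9% (IGHD3-1) in the iB-μMT mouse and from 12.1% (IGHD2-3) to 22.7% (IGHD1-1) in the B6 mouse, so that IGHD3-2 was the lowest of 9 in both. The 26.9% of IGHD3-1 was 7 of 26 clonotypes (13.7 to 46.1). Over all its calls IGHD3-1, which ends in the same 6 bases, used IGHJ1 in 27 of 150 clonotypes (18.0%) and 32 of 164 (19.5%). By the longest exact match only 48 and 52 of these calls kept IGHD3-1. Another 26 and 33 went to IGHD1-1, whose own calls used IGHJ1 in 19.4% and 23.8%, so the comparison is limited. In the iB-μMT mouse IGHJ1 made up 5 of 46, 4 of 120 and 1 of 62 IGHD3-2 clonotypes in the frames that start at the first base, at the second base and at the third base, and in the B6 mouse 3 of 65, 6 of 130 and 0 of 65. The low share was thus found in the most used frame (3.33% and 4.62%) as well as over all of them. In the iB-μMT mouse it was 10.9% in the frame that starts at the first base. That is nearer to the 14.5% of the outside D genes, though it rests on 46 clonotypes.

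No V family share of IGHD3-2 passed a test against the outside D genes of the same library. IGHV1, the largest mouse V family and mostly far from the D segments, made up 76 of 247 IGHD3-2 clonotypes in the iB-μMT mouse (30.8%) and 29.9% of the outside D genes, and 179 of 286 (62.6%) and 59.8% in the B6 mouse (differences of 0.91 points, -4.63 to 7.03, and 2.79 points, -3.10 to 8.35). The adjusted p was 0.777 and 0.514 by Fisher's exact test over 4 tests. The D-proximal families IGHV2 and IGHV5 together made up 36.8% of IGHD3-2 clonotypes against 40.3% in the iB-μMT mouse (adjusted p = 0.514, exact test), and 10.1% against 14.9% in the B6 mouse (adjusted p = 0.102, exact test). None of the 4 tests passed, and at an unadjusted p under 0.05 the last of them did (p = 0.0255, Fisher's exact test). Between the mice, IGHV5 made up 81 of 247 IGHD3-2 clonotypes against 28 of 286 (32.8% and 9.79%), and IGHV2 made up 4.05% against 0.350%. For the outside D genes the shares were 31.9% and 12.4% for IGHV5 and 8.41% and 2.51% for IGHV2, so both families were more frequent in the iB-μMT mouse there too. IGHV3 made up 6.48% against 3.50% of IGHD3-2 clonotypes, and the interval of that difference held 0 (-0.75 to 7.08). IGHD3-1 was joined to the same families, with IGHV1 at 32.0% and 60.4% and IGHV5 at 34.0% and 18.3%.

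Single V genes were shared with many D genes. IGHV5-4 was the most frequent partner in the iB-μMT mouse for IGHD3-2 (32 of 247), IGHD3-1 (25 of 150), IGHD5-1 (6 of 47), IGHD5-5 (4 of 23) and IGHD5-7 (12 of 86), at 12.8% to 17.4%, beside 13.1% of the outside D genes. IGHV9-3 (24 clonotypes, 9.72% against 5.84% of the outside D genes) and IGHV5-6 (19 clonotypes, 7.69% against 6.91%) followed for IGHD3-2. In the B6 mouse IGHD3-2 was joined most often to IGHV9-3 (20 of 286, 6.99% against 3.80%), IGHV1-50 (19, 6.64% against 2.59%) and IGHV1-26 (16, 5.59% against 4.49%). IGHD5-7 was joined most often to IGHV5-4 there (13 of 136, 9.56% against 3.37%). These single V genes were picked as the most frequent partners, and their differences were not tested. IGHD3-2 was found with 68 and 65 V genes.

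The junctions of IGHD3-2 carried fewer inserted nucleotides in the iB-μMT mouse. Both joints together held 3.45 ± 0.16 inserted nucleotides (mean ± SE over 247 clonotypes, SD 2.55) in the iB-μMT mouse. They held 5.75 ± 0.23 (286 clonotypes, SD 3.92) in the B6 mouse, which puts the difference at -2.29 ± 0.28. At the V to D joint the means were 2.45 ± 0.14 and 3.51 ± 0.19, and at the D to J joint 1.004 ± 0.10 and 2.24 ± 0.14. The D genes outside the IGHD3 and IGHD5 families differed by nearly as much (4.37 against 6.47, a difference of -2.09 ± 0.07), and the mean was lower in the iB-μMT mouse for all 13 D genes that had 20 or more clonotypes in both libraries. These errors cover the spread between clonotypes of 1 library only.

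Within a mouse, IGHD3-2 had fewer inserted nucleotides than the outside D genes at the V side, while the interval of the difference at the J side held 0. The difference at the V to D joint was -0.75 ± 0.15 nucleotides for iB-μMT and -0.62 ± 0.19 for B6. At the D to J joint it was -0.17 ± 0.10 (95% interval -0.37 to 0.04) and -0.10 ± 0.15 (-0.39 to 0.19). No nucleotide was inserted at the V to D joint in 64 of 247 IGHD3-2 clonotypes of the iB-μMT mouse (25.9%, 20.8 to 31.7) against 15.3% of the outside D genes (14.4 to 16.2), and in 47 of 286 of the B6 mouse (16.4%, 12.6 to 21.2) against 9.96% (9.18 to 10.8). At the D to J joint the shares were 56.3% against 55.0% and 31.1% against 29.0%. A low mean at the V to D joint was not particular to IGHD3-2 (2.45 and 3.51 nucleotides). It was 1.81 and 2.58 for IGHD3-1, 1.91 and 3.06 for IGHD5-1, and 2.21 and 2.86 for IGHD5-7. For IGHD5-5 it was 2.52 and 2.96, higher than for IGHD3-2 in the iB-μMT mouse only. Of the outside D genes, IGHD2-3 had 2.74 and 3.79 and IGHD2-4 had 3.52 and 4.35, both higher than IGHD3-2.

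Clonotypes with no inserted nucleotide at either joint, in which the V, D and J alignments with their palindromes left no base over, were more frequent in the iB-μMT mouse for IGHD3-2. They numbered 33 of 247 (13.4%, 9.67 to 18.2) and 14 of 286 (4.90%, 2.94 to 8.05), a difference of 8.47 points (3.61 to 13.7, adjusted p = 0.00108, two-sided Fisher's exact test adjusted over 13 D genes). Of the 13 D genes 69.2% were called in that direction, so the call is the common one. Of the 5 members tested 2 were called. The second was IGHD5-5, with 5 of 23 and 0 of 28 (adjusted p = 0.0207, exact test), where the 0 allows a share of up to 10.7%. IGHD3-1 had 17 of 150 (11.3%) and 8 of 164 (4.88%, adjusted p = 0.05004, just over the threshold), IGHD5-1 5 of 47 and 2 of 51 (adjusted p = 0.279), and IGHD5-7 7 of 86 and 6 of 136 (adjusted p = 0.279), by the same exact test. Bases of another D segment beside a short hit were counted as inserted unless an extended alignment covered them, as in the IGHD5-1 clonotype printed above, which holds 10 bases of IGHD1-1 and has 0 inserted nucleotides. An IGHD1, IGHD2 or IGHD4 segment had the longer exact match in 3 of the 33 and 1 of the 14 IGHD3-2 clonotypes without inserted nucleotides, in 9 of 17 and 2 of 8 of IGHD3-1, and in 4 of the 5 of IGHD5-5 in the iB-μMT mouse. The call of IGHD5-5 therefore rests mainly on clonotypes that another D segment matched better.

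**Figure D4:**
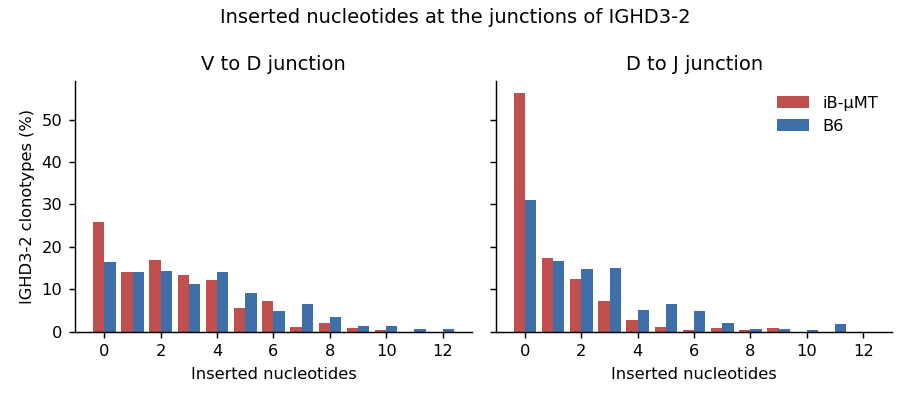
Share of IGHD3-2 clonotypes (%, vertical axis) by the number of inserted nucleotides (horizontal axis, up to 12) at the V to D joint (left) and the D to J joint (right) in the iB-μMT mouse (red, 247 clonotypes) and the B6 mouse (blue, 286 clonotypes). The bars at 0 nucleotides stand at 25.9% and 16.4% on the left and at 56.3% and 31.1% on the right.

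More of the 5′ end of IGHD3-2 was missing in the iB-μMT mouse when all its clonotypes were counted, at 2.52 ± 0.16 and 2.05 ± 0.14 nucleotides (mean ± SE), a difference of 0.47 (95% interval 0.05 to 0.89). At the 3′ end the difference was -0.45 (-1.39 to 0.48). For the pool of outside D genes it was -0.51 (-0.62 to -0.40) at the 5′ end, in the other direction. At the 3′ end it was -0.57 (-0.78 to -0.37). The mix of genes in the pool differed between the mice, and its part in these values was not tested. Among single IGHD1, IGHD2 and IGHD4 genes the 5′ difference ran from -0.61 (IGHD2-4) to 0.04 (IGHD2-7). Their 3′ difference ran from -0.40 (IGHD4-1) to 0.53 (IGHD2-5). For IGHD3-1 the difference was 1.04 (0.12 to 1.97) at the 5′ end, the direction of IGHD3-2, and -2.15 (-3.94 to -0.36) at the 3′ end. These values include hits that lie in the palindrome. Among clonotypes with at least 8 germline nucleotides, a setting that itself limits how much can be missing, 2.03 ± 0.14 and 1.81 ± 0.12 nucleotides (mean ± SE, 181 and 214 clonotypes) were missing from the 5′ end, and 1.94 ± 0.15 and 1.92 ± 0.14 from the 3′ end. The differences were then 0.22 (95% interval -0.13 to 0.57) and 0.03 (-0.37 to 0.42), beside -0.62 and -0.19 for the pool of outside D genes. The mean number of germline nucleotides left was 12.02 and 12.3, and palindromic nucleotides averaged 0.18 and 0.27 at the 5′ end and 0.36 and 0.35 at the 3′ end.

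IGHD3-2 was read in all 3 frames, and 1 frame made up about as many clonotypes as the others together. No frame of the IGHD3 genes, of IGHD5-1 or of IGHD5-5 holds a stop codon, and 1 frame of IGHD5-7 holds 1. The frame most used by IGHD3-2 starts at the second base and runs to the last, with the codons in capitals below, beside the frame of IGHD3-1 that reads the shared bases in the same phase.
IGHD3-2, most used frame: aGACAGCTCAGGCTAC
IGHD3-1, most used frame: ggCACAGCTCGGGCTAC
It was found in 120 of 228 (52.6%, 46.2 to 59.0) and 130 of 260 (50.0%, 44.0 to 56.0) IGHD3-2 clonotypes, over clonotypes with a germline D base and no gap. The difference was 2.63 points (-6.22 to 11.4, p = 0.587, two-sided Fisher's exact test). The frame that starts at the first base was found in 46 and 65 clonotypes, and the frame that starts at the third base in 62 and 65. With at least 8 germline nucleotides the most used frame made up 94 of 175 and 101 of 210.

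IGHD3-1 was read mostly in the frame of the same phase, which starts at the third base, with 74 of 124 clonotypes in the iB-μMT mouse (59.7%, 50.9 to 67.9) and 60 of 121 in the B6 mouse (49.6%, 40.8 to 58.4). The frame that starts at its first base had 39 in each, and the frame that starts at its second base had 11 and 22. Of the clonotypes with at least 8 germline nucleotides, 16 of 22 and 12 of 16 were in the most used frame. IGHD5-1 had 8, 16 and 5 (iB-μMT) and 10, 15 and 6 (B6) clonotypes in the frames that start at the first base, at the second base and at the third base. IGHD5-5 had 11, 3 and 3 and 14, 5 and 2. IGHD5-7 had 9, 21 and 17 and 18, 14 and 19, and the frame with the stop codon is the one that starts at the second base. A stop codon anywhere in CDR3 was found in 1 of 567 and 14 of 689 IGHD3 and IGHD5 clonotypes, against 47 of 6220 and 121 of 5259 of the outside D genes.

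**Figure D5:**
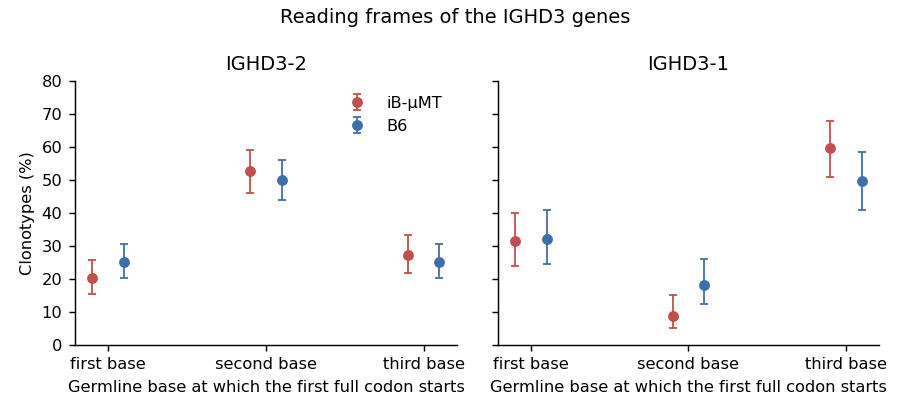
Share of clonotypes (%, vertical axis) in each reading frame, named by the germline base at which the first full codon starts (horizontal axis), for IGHD3-2 (left) and IGHD3-1 (right) in the iB-μMT mouse (red) and the B6 mouse (blue), with 95% Wilson intervals. The frame from the second base of IGHD3-2 (52.6% and 50.0%) and that from the third base of IGHD3-1 (59.7% and 49.6%) stand highest, and the intervals of the mice overlap in every frame.

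CDR3 of IGHD3-2 clonotypes was 13.5 ± 0.12 amino acids long in the iB-μMT mouse (mean ± SE, SD 1.87) and 13.8 ± 0.14 in the B6 mouse (SD 2.42). The difference was -0.31 ± 0.19 (95% interval -0.67 to 0.06), beside -0.53 ± 0.04 for the pool of outside D genes. The mix of genes in the pool differed between the mice, and its part in that value was not tested. For single genes the difference was 0.004 ± 0.08 (IGHD1-1), -0.19 ± 0.10 (IGHD2-3), -0.11 ± 0.10 (IGHD2-4) and -0.27 ± 0.10 (IGHD4-1). It was larger in size than for IGHD3-2 for IGHD2-5 (-0.49 ± 0.14), IGHD2-7 (-0.45 ± 0.17) and IGHD2-8 (-0.69 ± 0.16). With at least 8 germline nucleotides the difference of IGHD3-2 was -0.42 ± 0.20, and the interval (-0.81 to -0.03) no longer held 0. Within a mouse CDR3 was shorter for IGHD3-2 than for the outside D genes, with differences of -0.50 ± 0.12 amino acids for iB-μMT and -0.73 ± 0.15 for B6. The outside D genes vary in length, and IGHD3-2 has 16 bp. Their means were 15.3 and 15.3 for IGHD1-1 (23 bp), 13.8 and 14.03 for IGHD2-3 (17 bp), and 12.5 and 12.8 for IGHD4-1 (11 bp). The part of segment length in the difference was not tested. IGHD3-1 gave 12.99 and 12.96 amino acids, with a difference of 0.03 ± 0.24.

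IGHD3 and IGHD5 clonotypes were read about as deeply as the rest. Their median was 101 and 185 reads, beside 93.5 and 183 for the outside D genes, and 19 and 25 of them had 1 read. The clonotype with the most reads of each member held 180 to 501 reads in the iB-μMT mouse and 219 to 945 in the B6 mouse, at most 0.0683% of a library's reads. Of these clonotypes, 3 had the same CDR3 nucleotides, V gene and J gene in both libraries. They were an IGHD3-1 clonotype of IGHV5-4 and IGHJ3 (96 and 53 reads), an IGHD5-1 clonotype of IGHV5-17 and IGHJ1 (1 and 92 reads) and an IGHD5-7 clonotype of IGHV1-26 and IGHJ2 (1 and 607 reads). They held 5, 1 and 0 germline D nucleotides, and no IGHD3-2 clonotype was shared. Of the clonotypes of the outside D genes 27 of 6220 and 5259 were shared, so the few shared here are close to the common rate.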

How the data were processed

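The authors amplified cDNA ends by 5′ RACE, sequenced the heavy chain libraries on a MiSeq instrument and assembled clonotypes with MiXCR. They deposited, for each clonotype, a count of reads, beside CDR3, gene hits with alignments and segment end points. The submitters' processing notes name bcl2fastq and mm10. Counts were used as deposited, without normalization, and the 4 light chain libraries were not used. Libraries held 909806 and 1383617 reads, without molecular identifiers, so intervals cover counting error only.

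The members and lists were chosen with earlier results of these data known. Each clonotype was counted once under its first D hit. Alignment positions split the D reference, whose flanks matched the palindrome of the segment at 271 of 271 readable positions, into germline and palindromic bases. All 16 D genes matched RefSeq by name and length. Frames were taken from the position of the germline segment in CDR3, and inserted nucleotides lay between the reported V, D and J ends.

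Shares were compared by two-sided Fisher's exact tests, for D genes with at least 20 clonotypes in both libraries together (usage) or in each (inserted nucleotides), with Benjamini-Hochberg adjustment at 0.05. Intervals are 95% Wilson, or Newcombe for differences, and a 0 allows 3 counts. Means carry standard errors over clonotypes and no test. Named were all members, the largest gene of each other family, all J genes, V families IGHV1, IGHV2, IGHV3 and IGHV5, the top V genes and shared clonotypes. Alternatives are given in the closing section. Of the tests, only that of D gene usage was checked on simulated data. Python 3.11.15, NumPy 2.4.6, SciPy 1.17.1, pandas 2.3.3 and statsmodels were used.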

Additional observations from a re-analysis of the deposited data

How the results depend on the processing

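Recomputation was done with a minimum of 2 or 5 reads per clonotype, the same read number in either library, near-identical clonotypes merged, shared clonotypes left out, productive clonotypes only, a best D hit above any hit of another D gene, at least 8 nucleotides of D aligned and weighting by reads. For usage, the share of all clonotypes and any tied best hit were added. The settings with at least 8 germline D nucleotides and with the longest exact D match were chosen after seeing the data. Of 250 recomputed values 240 kept their direction and side of the threshold, or, where there was no test, their size, 3 gained a call and 7 changed sign. The difference of IGHD3-2 usage stayed between -1.39 and -1.05 points (adjusted p 0.00086 to 0.0178, Fisher's exact test). The IGHJ1 difference of IGHD3-2 stayed between -11.5 and -8.80 points in the iB-μMT mouse and between -14.3 and -10.2 in the B6 mouse. The difference in clonotypes without inserted nucleotides stayed between 8.03 and 8.99 points, in inserted nucleotides between -2.53 and -2.10, in the most used frame between 2.63 and 5.62 points, and in CDR3 length between -0.44 and -0.31 amino acids, with 95% intervals that held 0 in some settings and not in others (merged clonotypes, -0.42 ± 0.19; at least 8 nucleotides aligned, -0.41 ± 0.20). From 5 to 9 D genes were called for usage, beside 6. The 3 gained calls were those of other members: IGHD3-1 with any tied best hit (-0.75 points, adjusted p = 0.028), IGHD5-1 with at least 8 nucleotides aligned (-0.24 points, adjusted p = 0.0391) and IGHD5-5 by the longest exact match (-0.21 points, adjusted p = 0.0377), each by Fisher's exact test. The 7 values that changed sign passed no test in either form. With at least 8 germline D nucleotides the difference of IGHD3-2 from the outside D genes was 0.060 points for IGHJ4 in the B6 mouse, -0.40 for IGHV1 and 1.73 for IGHV2 and IGHV5 in the iB-μMT mouse. It was 0.29 for IGHV2 and IGHV5 with at least 8 nucleotides aligned and -0.48 for IGHV1 with 5 reads, both in the iB-μMT mouse, and 0.10 for IGHJ4 in the B6 mouse with a unique best hit. IGHD5-1 usage differed by 0.0087 points by the longest exact match. The cause was not tested. IGHD5-7 could not be tested with a unique best hit or with at least 8 germline nucleotides, for want of clonotypes. Leaving out a replicate was not possible with 1 library per group. No paired analysis was possible because each group held 1 library. With 1 mouse per group the spread between mice is unknown, and the small number of clonotypes of most members limits the precision further.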
